A study of Mus musculus with 74 samples.

Results

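Protein synthesis starts when a small ribosomal subunit, loaded with initiator tRNA, finds a start codon and is joined by a large subunit, and a set of initiation factors (eIFs) runs these steps. The genes described here are the initiation factors of mouse quadriceps that lie outside the cap-binding complex. They were chosen by name: every symbol that begins with Eif and a digit from 1 to 6, without pseudogene and Rik entries and without the 8 symbols of the cap complex (Eif4ebp1, Eif4ebp2, Eif4e, Eif4g1, Eif4g3, Eif4a1, Eif4a2 and Eif4b). The rule used no measured value. It found 47 genes of 24940 symbols, the same 47 in the tables of poly(A) RNA, RiboTag counts and nascent RNA.

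By role they comprise 5 genes grouped as scanning factors (Eif1, Eif1b, Eif1a, Eif1ax and, placed here by its name only, Eif1ad), 6 genes of eIF2 and related tRNA carriers (Eif2s1, Eif2s2, Eif2s3x, Eif2s3y, Eif2a and Eif2d) and 4 kinases of eIF2α (Eif2ak1 to Eif2ak4). They further comprise the 5 subunits of eIF2B (Eif2b1 to Eif2b5), 14 genes of eIF3 (Eif3a to Eif3i, Eif3j1, Eif3j2 and Eif3k to Eif3m), 8 relatives of the eIF4 group (Eif4a3, Eif4e1b, Eif4e2, Eif4e3, Eif4ebp3, Eif4enif1, Eif4g2 and Eif4h), 3 factors of subunit joining (Eif5, Eif5b and Eif6) and 2 genes of eIF5A (Eif5a and Eif5a2). As background, eIF2 carries the initiator tRNA in its GTP form, Eif5 triggers GTP hydrolysis once the start codon is found, and eIF2B reloads eIF2 with GTP. Stress kinases phosphorylate the α subunit of eIF2, which turns eIF2 into an inhibitor of eIF2B and lowers general initiation while transcripts such as that of Atf4 are translated more. eIF3 is the large scaffold on the small subunit, Eif5b joins the subunits, and Eif6 keeps free large subunits apart.

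All muscle came from C57BL/6 mice. Poly(A) RNA was measured in 5 knockout libraries (AEC-Esr Cre-positive, Bcl6 fl/fl, given tamoxifen), in 4 of Cre-negative Bcl6 fl/fl mice given tamoxifen, and in 4 of Cre-positive Bcl6 fl/fl mice given oil. The floxed allele is common to these 3 groups. The labels do not say in which cells the AEC-Esr Cre is active, and the mice's ages are not given in the sources used here. Ribosome footprints and mRNA came from 4 RiboTag knockouts (AEC-Esr Cre-positive, Bcl6 fl/fl, RiboTag) and 4 controls (AEC-Esr Cre-positive, RiboTag, with no floxed allele in the label), all given tamoxifen. In RiboTag mice, cells with Cre activity carry an HA-tagged ribosomal protein, so tagged ribosomes can be pulled down. For the mRNA libraries the labels name poly(A) RNA and also the anti-HA antibody, so whole muscle and pull-down cannot be told apart. H3K27ac, the acetylation of lysine 27 of histone H3 that marks active regulatory DNA, has 3 series: acute (marked 1w in the column headers), chronic (marked 12w) and a series on windows around BCL6 peaks, whose title numbers also appear on poly(A) libraries. Each series has 3 libraries of tamoxifen-treated knockouts and 3 of tamoxifen-treated Cre-negative Bcl6 fl/fl mice. Nascent RNA came from 5 wild-type muscle libraries with FX1, a small-molecule inhibitor of BCL6, and 5 with the solvent DMSO. BCL6 binding was mapped in 1 wild-type library. Numbers in the titles tell the animals of the RiboTag series apart; elsewhere the labels do not state that libraries are separate animals, so p-values measure the spread between these libraries, which may be technical.

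Libraries held 6.7e+06 to 7.6e+06 tags in poly(A) RNA, 1.4e+07 to 3.3e+07 in nascent RNA and 7794885 to 23016334 in H3K27ac, and 6499561 to 13045854 mRNA and 3248807 to 4370468 footprint counts in genes. DMSO library 4 and FX1 library 3 correlated least with their own groups (0.974 and 0.963), as did the shallowest H3K27ac library, a chronic control (0.768). Bcl6 itself was lower in knockout than in Cre-negative poly(A) RNA (log2 change -0.23, SE 0.058, adjusted p = 0.0135) and than in oil-treated muscle (log2 change -0.31, SE 0.062, adjusted p = 0.00288). Bcl6 footprints fell (log2 change -1.12, SE 0.20, adjusted p = 0.00201) and its mRNA in the RiboTag libraries did not pass (log2 change 0.14, SE 0.26, adjusted p = 0.84). Whole-gene values do not separate the floxed exons. Of 35 markers of cells other than muscle fibres tested in footprints, 27 were lower in the knockouts and 0 higher, against 0 of 38 in either direction in RiboTag mRNA; in translation efficiency 15 of 38 were lower. The summed endothelial markers (5 of 5 lower) ran from 372 to 680 CPM (counts scaled by library size) in control and from 126 to 343 CPM in knockout footprints, and those of myeloid cells (5 of 5 lower) from 435 to 606 and from 151 to 341 CPM. No endothelial or myeloid marker was at 0 in a whole group. Muscle fibre markers, 3 of 6 lower, summed to 20190 to 23690 CPM in control and 16570 to 17320 CPM in knockout footprints.

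Only 2 of the 47 genes, Eif3a and Eif2s2, had a BCL6 peak within 1000 bp of the start (4.26%, against 6.70% of all symbols), so the upstream sequence of these 2 is shown. Both are the 250 bases before the start (GRCm38.p6, the mm10 build, from RefSeq), written 5′ to 3′ along the gene, with the bases that lie under the peak in capitals (32 for Eif3a, 38 for Eif2s2). They come from chr19:60790694-60790943 and chr2:154892907-154893156, both on the minus strand.
Eif3a: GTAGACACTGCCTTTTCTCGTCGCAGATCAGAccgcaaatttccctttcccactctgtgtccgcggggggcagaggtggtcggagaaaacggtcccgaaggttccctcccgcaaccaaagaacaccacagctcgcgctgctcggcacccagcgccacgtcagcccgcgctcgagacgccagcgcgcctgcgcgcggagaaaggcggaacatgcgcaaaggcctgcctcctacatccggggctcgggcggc
Eif2s2: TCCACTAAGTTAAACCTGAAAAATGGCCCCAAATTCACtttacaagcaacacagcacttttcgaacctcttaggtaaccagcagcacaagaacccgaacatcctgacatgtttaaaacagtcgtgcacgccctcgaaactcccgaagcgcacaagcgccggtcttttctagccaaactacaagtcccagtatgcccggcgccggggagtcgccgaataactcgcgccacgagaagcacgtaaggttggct

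BCL6 is known to bind DNA at TTCCTAGAA-like sequences, which overlap the sites of STAT factors. Of the 47 genes 36 had a RefSeq promoter entry, with 47 windows of 250 bases between them. A search of both strands for TTCCNNGAA, which contains TTCCTAGAA, found it in 3 of these windows (6.38%), against 1333 of 32851 windows of all genes (4.06%). TTCCTAGAA itself was in 0 of the 47, against 114 of all windows (0.347%). The 3 matches are shown with 10 bases on each side and the match in capitals, since 2 of them belong to kinases whose values are given further on.
Eif2ak2 (chr17, 178 bases before the start): ctgcagagctTTCCCAGAAtggaagccag
Eif2ak3 (chr6, 129 bases before the start): ttggccgtcgTTCCCGGAAaagggccgga
Eif3c (chr7, 67 bases before the start): tctttggtgcTTCCGGGAAgtgacgcccc
The Eif2ak3 and Eif3c matches read as a match on either strand. None of these 3 genes had a BCL6 peak assigned to it, and the pair of promoters with a peak, printed above, held no match.

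Levels of the genes in the 4 control RiboTag muscles are compared per length, as CPM per kilobase of exon. The tags were counted over whole gene bodies, introns included, and divided by exon length, so the order of levels is approximate. In footprints the eIF3 subunits stood highest, with a role median of 77.3 CPM per kb: Eif3k at 189 ± 14 (SD, n = 4), Eif3g at 163 ± 16.9 (SD, n = 4), Eif3c at 121 ± 9.61 (SD, n = 4) and Eif3i at 119 ± 7.49 (SD, n = 4). The last pair lay within their spread of each other. Eif5a, the hypusinated factor that helps ribosomes through difficult peptide bonds, followed at 101 ± 13.1 (SD, n = 4), and Eif4h, a stimulator of the eIF4A helicase, at 98.3 ± 8.48 (SD, n = 4). The 5 eIF2B subunits lay close together, from 53.3 ± 5.48 for Eif2b5 to 74 ± 3.48 for Eif2b2 (SD, n = 4 each). Of the 4 eIF2α kinases, 3 stood low, Eif2ak2 at 6.85 ± 0.905, Eif2ak3 at 4.06 ± 0.895 and Eif2ak4 at 3.3 ± 0.55, whereas Eif2ak1 stood at 38.2 ± 4.64 CPM per kb (SD, n = 4 each). Of the gene pair for the γ subunit of eIF2, the Y-linked Eif2s3y stood at 66.5 ± 5.59 and the X-linked Eif2s3x at 1.88 ± 0.484 CPM per kb (SD, n = 4 each). Both near-identical copies can share reads, so this split is uncertain. The lowest were Eif5a2, at 0.407 ± 0.149, and Eif4e1b, at 0.0649 ± 0.0753, an oocyte relative of eIF4E that no comparison tested. In mRNA Eif5a stood highest (155 ± 20 CPM per kb), followed by Eif3k (127 ± 11.9) and Eif3i (123 ± 9.51; SD, n = 4 each), with Eif3k and Eif3i inside their spread.

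Footprints relative to mRNA within control muscle differed widely between the genes. Of 46 tested, 15 stood higher and 20 lower in footprints than in mRNA, where 71.6% of all genes were called (34.8% higher and 36.8% lower), and the median log2 ratio was -0.15 beside -0.031 for all genes. Eif1, the start-codon fidelity factor, was lowest, with 117 ± 19.4 CPM of mRNA and 6.19 ± 1.78 CPM of footprints (SD, n = 4 each) (log2 ratio -4.22, SE 0.18, adjusted p = 2.87e-10). Its 4 footprint libraries held only 40, 26, 20 and 19 counts against 1126, 1077, 1071 and 859 in mRNA. Reads of Eif1 can also go to its pseudogenes, of which RefSeq lists 3. Eif3j1 and Eif3j2, symbols for the loosely bound eIF3j, were counted over nearly the same interval (chr2:122028580-122053632 and chr2:122028583-122053631, mm10). Their counts were identical in all RiboTag libraries, so they are not separate measurements. Counts of genes and of eIF3 genes given here hold this interval under both symbols. Both gave a log2 ratio of -3.69 (SE 0.31, adjusted p = 1.51e-07), on only 2, 7, 10 and 12 footprint counts in the control libraries. The eIF4E-binding repressor Eif4ebp3 had 16.5 ± 0.964 CPM of mRNA and 5.22 ± 1.53 CPM of footprints (SD, n = 4 each) (log2 ratio -1.65, SE 0.22, adjusted p = 1.35e-05). Eif2s2, the β subunit of eIF2, had 109 ± 8.86 CPM of mRNA and 38.8 ± 5.39 CPM of footprints (SD, n = 4 each) (log2 ratio -1.49, SE 0.11, adjusted p = 6.23e-08). At the other end stood Eif2b3, a catalytic-arm subunit of eIF2B, with 45.6 ± 6.73 CPM of mRNA and 112 ± 1.86 CPM of footprints (SD, n = 4 each) (log2 ratio 1.29, SE 0.11, adjusted p = 1.51e-07). The antiviral kinase gene Eif2ak2 had 12 ± 0.883 CPM of mRNA and 29.5 ± 3.9 CPM of footprints (SD, n = 4 each) (log2 ratio 1.29, SE 0.15, adjusted p = 4.52e-06). Among eIF3 genes 6 stood higher, led by Eif3a (0.95), Eif3m (0.86) and Eif3g (0.79), and 6 lower, led after the eIF3j pair by Eif3d (-0.74) and Eif3f (-0.50). Subunits of the same complex did not share a ratio. Tags in both kinds of library were counted over whole gene bodies, introns included, so these ratios do not measure translation alone. How far the place of tags within a gene moved them was not tested. Outside eIF3, Eif1b (0.94), Eif4a3 (0.64) and Eif2b1 (0.60) stood higher, and Eif4e3 (-0.87), Eif4g2 (-0.83), Eif4enif1 (-0.72), Eif5a (-0.62) and Eif5 (-0.57) lower.

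**Figure D1:**
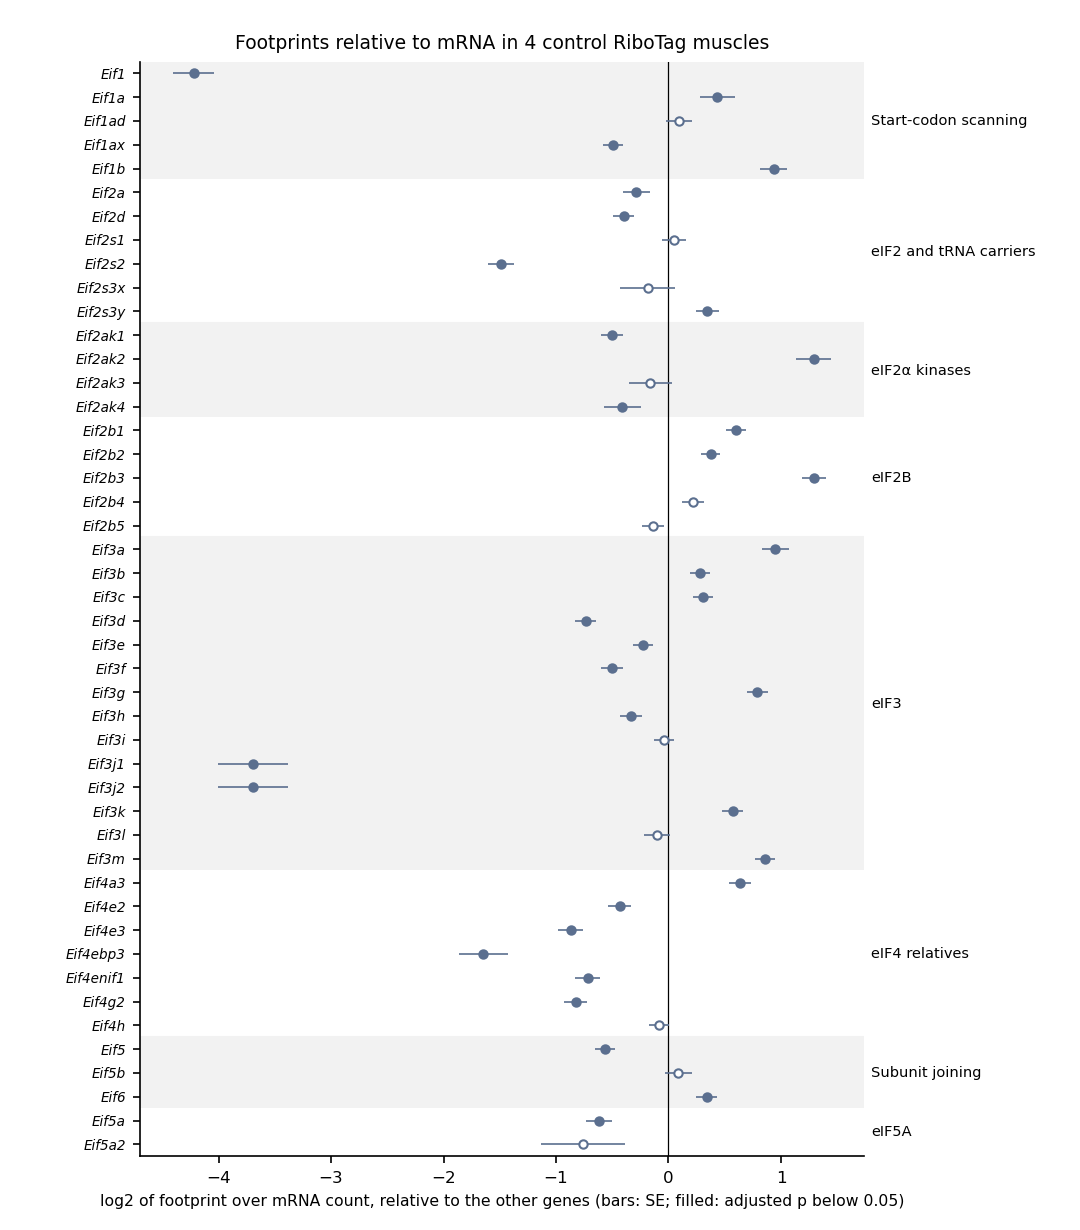
Log2 ratio of footprint to mRNA counts in the 4 control RiboTag muscles (x axis, relative to all genes) for 46 initiation factor genes, ordered by role on the y axis, with SE bars and filled points at an adjusted p below 0.05. Eif1, Eif3j1 and Eif3j2 lie far to the left, at -4.22 and -3.69, and Eif2b3 and Eif2ak2 farthest to the right, at 1.29.

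Between 0 and 4 of these genes differed in each comparison of RNA from Bcl6 knockout muscle, and 8 differed in footprints. In poly(A) RNA, 1 of 46 genes tested differed between knockout and Cre-negative muscle, 0 raised and 1 lowered, where 16.8% of all genes were called (6.55% raised and 10.3% lowered). Against oil-treated Cre-positive muscle 4 of 46 differed, 2 raised and 2 lowered, where 25.6% of all genes were called (10.9% raised and 14.7% lowered). Both comparisons use the same 5 knockouts. In RiboTag mRNA 0 of 46 were called by edgeR, where 4.21% of all genes were (1.95% raised and 2.25% lowered), with 4 at an unadjusted p below 0.05 and 1 called by DESeq2. In footprints 8 of 43 tested were called, 5 raised and 3 lowered, where 26.6% of all genes were called (10.9% raised and 15.7% lowered). For translation efficiency, the change in footprints relative to the change in mRNA, 4 of 46 were called, 2 raised and 2 lowered, where 9.91% of all genes were (2.93% raised and 6.98% lowered). Of all calls there 29.5% were raised, against 18.7% without the filter on low counts and 40.6% with DESeq2. The median log2 change of the genes was -0.0056 against Cre-negative muscle, 0.0054 against oil, -0.019 in RiboTag mRNA, 0.075 in footprints and 0.13 in translation efficiency, beside 0.0021, 0.0027, 0.012, 0.0040 and 0.054 for all genes tested. In nascent RNA after FX1, 7 of 46 were called, 5 raised and 2 lowered, where 23.6% of all genes were (12.4% raised and 11.2% lowered), and the median log2 change was -0.0034 beside 0.019 for all genes. In each of these 6 comparisons the genes' own share of calls lay below that of all genes. In translation efficiency the calls over all genes ran from 310 to 1892 with 1 animal left out, and without the second control animal by number, called B, 1 of the 46 genes was called beside 310 of 15125. After quantile normalization the nascent calls were 3 raised and 4 lowered, and 47.4% of all nascent calls were raised, against 52.6% before it. Of 29 markers of cells other than fibres in nascent RNA, 0 were higher and 3 lower, all 3 among the 4 adipocyte markers. Of 6 muscle fibre markers 3 were lower after FX1 (median log2 change of the 6 -0.76). On a linear scale these 6 summed to 562100 to 771100 with DMSO and 275600 to 509400 with FX1, without overlap. Their part in the nascent calls was not tested. In bulk muscle, fewer cells of a type and less RNA per cell cannot be told apart, and the lower markers of other cells in knockout footprints moved with the same libraries as the footprint changes given here. Their part in these results was not tested.

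**Figure D2:**
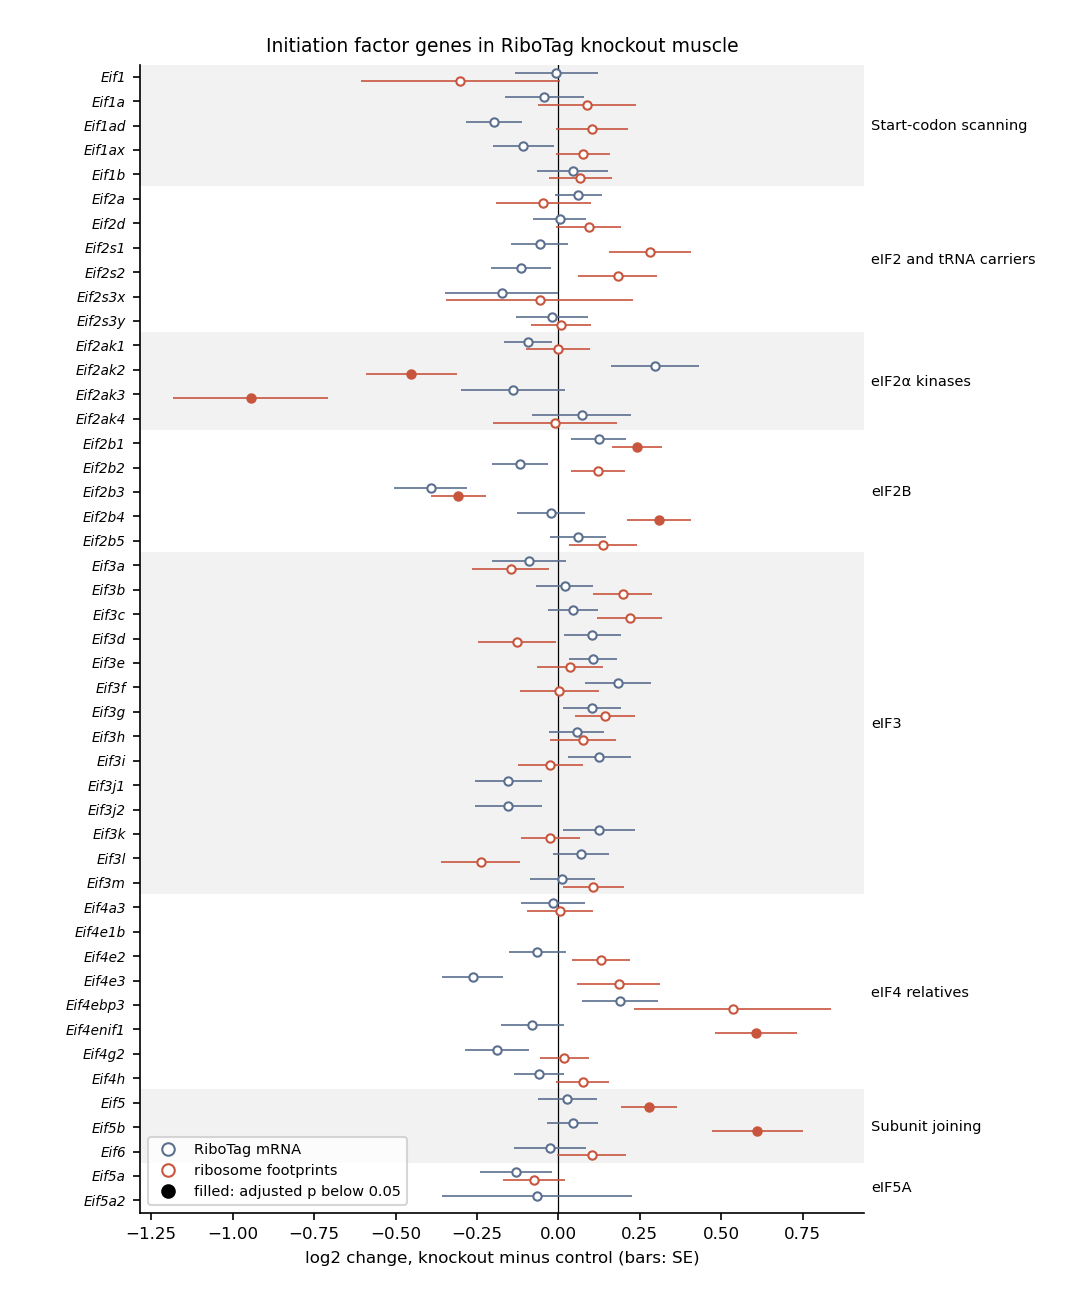
Log2 change of knockout against control muscle (x axis, with SE bars) in RiboTag mRNA and in footprints for the initiation factor genes, by role on the y axis, 4 animals a group. Filled points have an adjusted p below 0.05: no mRNA point is filled, and the filled footprint points run from Eif2ak3 at -0.95 to Eif5b at 0.61.

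Values by library are listed in a fixed order. Cre-negative libraries are P1898, P1899, P1906 and P1909, oil-treated libraries P1897, P1904, P1905 and P1910, and knockout poly(A) libraries P1895, P1896, P1900, P1907 and P1911. RiboTag controls are called A, B, C and D and RiboTag knockouts E, F, G and H, each in the order of the numbers in their titles, and nascent libraries are numbered 1 to 5. Poly(A) and nascent values are the authors' log2 values, and their changes hold on that scale only. Each poly(A) comparison has a table of its own, scaled separately, so knockout values differ slightly between them. The share of all genes tested whose groups did not overlap was 16.2% against Cre-negative muscle and 22.5% against oil. It was 11.3% in RiboTag mRNA, 25% in footprints and 18% in nascent RNA. The genes described here without overlap numbered 2 of 46, 8 of 46, 4 of 46, 8 of 43 and 5 of 46, in that order.

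Of the scanning group, eIF1 and eIF1A keep the small subunit open and poised at the start codon. Eif1ax, the X-linked gene for eIF1A, was the one gene lowered against Cre-negative muscle. In that table Eif1ax stood at 10.29, 10.30, 10.26 and 10.35 in Cre-negative and at 10.18, 10.21, 10.22, 10.25 and 10.24 in knockout muscle. All 5 knockouts lay below all 4 controls, by a small margin: Eif1ax fell from 10.30 ± 0.037 (SD, n = 4) to 10.22 ± 0.027 (SD, n = 5) (log2 change -0.083, SE 0.024, adjusted p = 0.0345). The call was lost when any 1 of these libraries was left out: knockouts P1895, P1896 or P1900, or Cre-negative P1898, P1899 or P1909 (adjusted p = 0.0573 to 0.104). It was also lost after quantile normalization, with a log2 change of -0.028 (adjusted p = 0.434), and without the filter on low values (adjusted p = 0.0534). In the table with oil-treated muscle it stood at 10.33, 10.35, 10.32 and 10.31 with oil and at 10.20, 10.23, 10.24, 10.27 and 10.26 in the knockouts (log2 change -0.088, SE 0.022, adjusted p = 0.011). Quantile normalization ended this call as well (log2 change -0.032, adjusted p = 0.298). Eif1ax footprints did not pass (log2 change 0.075, SE 0.083, adjusted p = 0.532). None of the 5 genes grouped as scanning factors was called in RiboTag mRNA, footprints, translation efficiency or nascent RNA. The nearest was Eif1a, the other gene for eIF1A, in nascent RNA (log2 change 0.53, SE 0.20, adjusted p = 0.0713). Eif1ad had an mRNA change of -0.20 (adjusted p = 0.267) and a footprint change of 0.10 (adjusted p = 0.515), and Eif1b, a copy of Eif1, 0.043 and 0.067 (adjusted p = 0.892 and 0.636).

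None of the 6 genes of eIF2 and its relatives was called in poly(A) RNA, RiboTag mRNA, footprints, translation efficiency or nascent RNA. Eif2s1 encodes the α subunit that the stress kinases phosphorylate. Eif2s1 poly(A) RNA stood at 8.81, 8.83, 8.80 and 8.82 in Cre-negative and at 8.79, 8.81, 8.83, 8.87 and 8.79 in knockout muscle (log2 change 0.00048, SE 0.023, adjusted p = 0.992). Eif2s1 stood at 8.89, 8.91, 8.81 and 8.91 in oil-treated muscle and at 8.82, 8.84, 8.86, 8.90 and 8.82 in the same knockouts (log2 change -0.036, SE 0.028, adjusted p = 0.391). For Eif2s1 the knockout libraries overlapped both control groups. RiboTag mRNA of Eif2s1 was 44.5, 52.2, 47.6 and 47.1 CPM in controls and 49.8, 46.3, 44.8 and 43 CPM in knockouts (log2 change -0.058, SE 0.087, adjusted p = 0.791). Eif2s1 footprints were 53.1, 57.4, 45.6 and 56.2 CPM in controls and 68.1, 56.8, 75.8 and 57.6 CPM in knockouts (log2 change 0.28, SE 0.13, adjusted p = 0.116). For Eif2s1 the groups overlapped in both kinds of library. Nascent Eif2s1 RNA stood at 8.63, 8.69, 8.40, 8.19 and 8.52 with DMSO and at 8.37, 8.90, 8.94, 8.62 and 8.71 with FX1 (log2 change 0.22, SE 0.14, adjusted p = 0.258). Eif2s1 had overlapping DMSO and FX1 libraries.

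Eif2s3y, the Y-linked gene for the γ subunit that holds GTP and the initiator tRNA, passed in no comparison of knockout or FX1-treated muscle. Eif2s3y poly(A) RNA stood at 9.03, 9.01, 8.97 and 9.05 in Cre-negative and at 9.07, 8.996, 9.08, 8.91 and 9.07 in knockout muscle (log2 change 0.012, SE 0.035, adjusted p = 0.859). Eif2s3y stood at 9.03, 8.99, 8.87 and 9.05 in oil-treated muscle and at 9.08, 9.01, 9.10, 8.91 and 9.08 in the same knockouts (log2 change 0.052, SE 0.044, adjusted p = 0.438). For Eif2s3y the knockout libraries overlapped both control groups. RiboTag mRNA of Eif2s3y was 85, 107, 83.8 and 89 CPM in controls and 105, 90.9, 78.5 and 85.1 CPM in knockouts (log2 change -0.020, SE 0.11, adjusted p = 0.955). Eif2s3y footprints were 137, 132, 118 and 109 CPM in controls and 122, 124, 129.8 and 124 CPM in knockouts (log2 change 0.0080, SE 0.092, adjusted p = 0.957). For Eif2s3y the groups overlapped in both kinds of library. Nascent Eif2s3y RNA stood at 9.35, 9.24, 9.01, 8.68 and 9.18 with DMSO and at 9.06, 9.54, 9.62, 9.42 and 9.29 with FX1 (log2 change 0.29, SE 0.15, adjusted p = 0.167). Eif2s3y had overlapping DMSO and FX1 libraries. The other genes of this group had footprint changes from -0.058 for Eif2s3x to 0.18 for Eif2s2 (adjusted p = 0.90 and 0.288), with Eif2a and Eif2d, which bring tRNA to the ribosome without eIF2, at -0.046 and 0.092. In nascent RNA all 6 changes were above 0, from 0.075 to 0.29 for Eif2s3y, with 0 called, beside a median of 0.019 for all genes.

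The eIF2α kinases each sense another stress: haem shortage (Eif2ak1, or HRI), double-stranded RNA (Eif2ak2, or PKR), unfolded proteins in the endoplasmic reticulum (Eif2ak3, or PERK) and uncharged tRNA (Eif2ak4, or GCN2). In footprints Eif2ak3 and Eif2ak2 were lower in knockout muscle. In nascent RNA after FX1 all 4 kinase genes were called, 3 raised and 1 lowered, where 23.6% of all genes were called (12.4% raised and 11.2% lowered). These readouts come from different mice and treatments, and their difference was not tested.

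Eif2ak3 (chr6:70844515-70905241, mm10) had the largest footprint change of all 43 genes tested. RiboTag mRNA of Eif2ak3 was 25, 17.8, 17 and 20.7 CPM in controls and 21.3, 14.5, 18.5 and 18.7 CPM in knockouts (log2 change -0.14, SE 0.16, adjusted p = 0.719). Eif2ak3 footprints were 23, 23.1, 17 and 13.9 CPM in controls and 9.95, 13.4, 7.21 and 9.49 CPM in knockouts (log2 change -0.95, SE 0.24, adjusted p = 0.0113). Eif2ak3 had overlapping groups in mRNA and all 4 knockouts below all 4 controls in footprints. Footprints fell from 19.2 ± 4.55 (SD, n = 4) to 10 ± 2.56 (SD, n = 4) CPM, and the call held with each library left out. Its log2 ratio of footprint to mRNA was -0.27, 0.27, -0.07 and -0.63 in control and -1.16, -0.18, -1.39 and -1.03 in knockout animals, with overlapping groups, and the change in efficiency did not pass (log2 change -0.76, SE 0.28, adjusted p = 0.0902). Leaving out knockout F brought it past the threshold (log2 change -1.06, adjusted p = 0.0225). Eif2ak3 poly(A) RNA stood at 7.49, 7.45, 7.45 and 7.43 in Cre-negative and at 7.49, 7.43, 7.45, 7.49 and 7.41 in knockout muscle (log2 change -0.0041, SE 0.026, adjusted p = 0.933). Eif2ak3 stood at 7.52, 7.53, 7.55 and 7.52 in oil-treated muscle and at 7.54, 7.46, 7.48, 7.53 and 7.44 in the same knockouts (log2 change -0.038, SE 0.028, adjusted p = 0.35). For Eif2ak3 the knockout libraries overlapped both control groups. Nascent Eif2ak3 RNA stood at 8.83, 9.11, 8.99, 8.72 and 8.94 with DMSO and at 9.24, 9.11, 9.08, 9.43 and 9.60 with FX1 (log2 change 0.37, SE 0.12, adjusted p = 0.0485). Eif2ak3 had overlapping DMSO and FX1 libraries. The nascent call was lost when any 1 of these libraries was left out: DMSO 1, 2, 3, 4 or 5, or FX1 1, 2, 4 or 5 (adjusted p = 0.0503 to 0.107). It was also lost after quantile normalization, without the variance trend and without the filter on low values (adjusted p = 0.0979, 0.0533 and 0.0727).

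Eif2ak2 (chr17:78852550-78882572, mm10) had a change above 0 in mRNA, not called, and a called fall in footprints. RiboTag mRNA of Eif2ak2 was 12.6, 12.3, 10.6 and 11.8 CPM in controls and 16.2, 13.1, 14.4 and 14.3 CPM in knockouts (log2 change 0.30, SE 0.13, adjusted p = 0.292). Eif2ak2 footprints were 26.3, 35, 32.1 and 30.7 CPM in controls and 22.9, 22.8, 21.9 and 23 CPM in knockouts (log2 change -0.45, SE 0.14, adjusted p = 0.030). Eif2ak2 had all 4 knockouts above all 4 controls in mRNA and all 4 knockouts below all 4 controls in footprints. The footprint call was lost when any 1 of these libraries was left out: controls B or C, or knockouts E, F, G or H (adjusted p = 0.058 to 0.122). It ended without the filter on low counts too (adjusted p = 0.0791). Its log2 ratio of footprint to mRNA was 0.92, 1.40, 1.53 and 1.32 in control and 0.44, 0.72, 0.58 and 0.64 in knockout animals. All 4 knockouts lay below all controls, and translation efficiency was lowered (log2 change -0.71, SE 0.19, adjusted p = 0.0263). This call was lost when any 1 of these libraries was left out: animals B, C, E, G or H (adjusted p = 0.0673 to 0.0981). Nascent Eif2ak2 RNA stood at 8.29, 8.38, 8.31, 7.89 and 8.32 with DMSO and at 8.64, 8.79, 8.57, 8.86 and 8.96 with FX1 (log2 change 0.53, SE 0.12, adjusted p = 0.00955). All 5 FX1 libraries lay above all 5 DMSO libraries. DMSO library 4 stood apart below the other DMSO libraries, and without it the nascent change was 0.44 (adjusted p = 0.0164).

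Eif2ak4 passed in no comparison of knockout muscle. Eif2ak4 poly(A) RNA stood at 7.44, 7.31, 7.39 and 7.30 in Cre-negative and at 7.40, 7.44, 7.41, 7.34 and 7.42 in knockout muscle (log2 change 0.040, SE 0.032, adjusted p = 0.444). Eif2ak4 stood at 7.43, 7.39, 7.40 and 7.36 in oil-treated muscle and at 7.44, 7.48, 7.44, 7.36 and 7.45 in the same knockouts (log2 change 0.037, SE 0.029, adjusted p = 0.392). For Eif2ak4 the knockout libraries overlapped both control groups. RiboTag mRNA of Eif2ak4 was 23.5, 21.7, 19.2 and 24.9 CPM in controls and 21.4, 27.6, 17.8 and 26.5 CPM in knockouts (log2 change 0.071, SE 0.15, adjusted p = 0.865). Eif2ak4 footprints were 16, 22.2, 17.6 and 16 CPM in controls and 17.5, 13.7, 21.1 and 19 CPM in knockouts (log2 change -0.011, SE 0.19, adjusted p = 0.971). For Eif2ak4 the groups overlapped in both kinds of library. Nascent Eif2ak4 RNA stood at 10.21, 10.01, 10.04, 10.25 and 10.07 with DMSO and at 10.68, 10.70, 10.86, 10.34 and 10.52 with FX1 (log2 change 0.50, SE 0.11, adjusted p = 0.00873). All 5 FX1 libraries lay above all 5 DMSO libraries. The nascent call held under every alternative run. Eif2ak1 fell in nascent RNA and was the gene with the smallest adjusted p there. Nascent Eif2ak1 RNA stood at 9.47, 9.41, 9.70, 9.59 and 9.45 with DMSO and at 8.83, 8.92, 9.26, 8.94 and 9.03 with FX1 (log2 change -0.53, SE 0.11, adjusted p = 0.00483). All 5 FX1 libraries lay below all 5 DMSO libraries. This call, too, held under every alternative. In knockout muscle Eif2ak1 had changes of -0.039 in poly(A) RNA against Cre-negative muscle and -0.0013 in footprints (adjusted p = 0.271 and 0.994). Poly(A) and RiboTag tags of Eif2ak1 carry the interval chr5:143871862-143902717 (mm10). Its RefSeq promoter window, chr5:143817542-143817791, does not adjoin that interval, so which part of the gene was counted is uncertain.

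**Figure D3:**
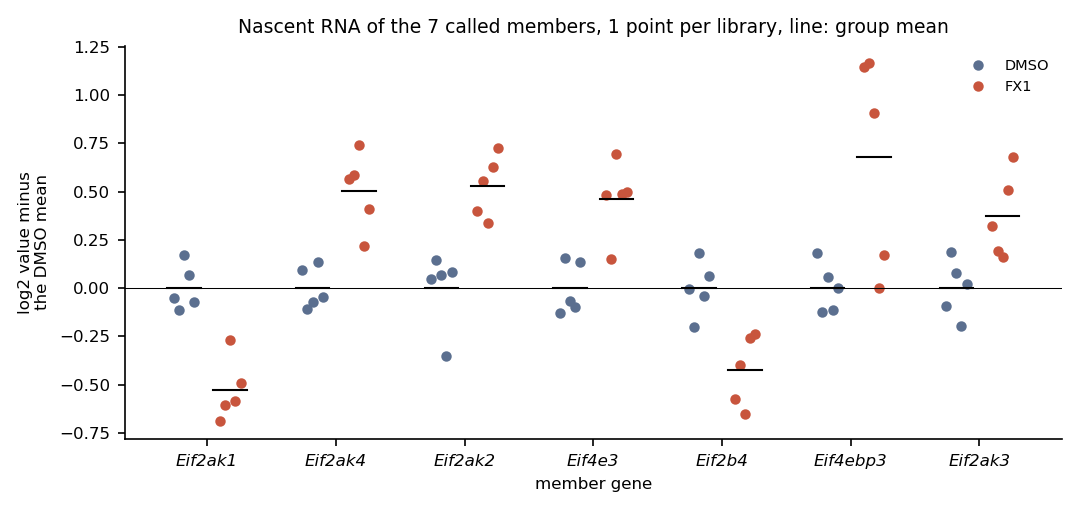
Nascent RNA of the 7 initiation factor genes called after FX1: log2 value minus the DMSO mean of that gene (y axis) for 5 DMSO and 5 FX1 libraries per gene (x axis), with lines at the group means. The FX1 means of Eif2ak1 and Eif2b4 lie below 0, at -0.53 and -0.43, and those of the other 3 kinases, Eif4e3 and Eif4ebp3 above 0, with the widest FX1 spread in Eif4ebp3.

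eIF2B exchanges GDP for GTP on eIF2. Its α, β and δ subunits (Eif2b1, Eif2b2 and Eif2b4) form the regulatory core that phosphorylated eIF2 binds, and γ and ε (Eif2b3 and Eif2b5) form the catalytic arms. Against Cre-negative muscle all 5 poly(A) changes were below 0, from -0.0017 to -0.097, with 0 called. Against oil-treated muscle 2 lay above 0 and 3 below, from -0.031 to 0.0080, with 0 called. In footprints 2 subunits of the core were raised and 1 of the arms lowered, where 10.9% of all genes were raised and 15.7% lowered. Eif2b4 (chr5:31187558-31193139, mm10) had footprints of 148, 128, 123 and 149 CPM in controls and 156, 164, 192 and 167 CPM in knockouts. All 4 knockouts lay above all 4 controls (log2 change 0.31, SE 0.10, adjusted p = 0.0327). The call was lost when any 1 of these libraries was left out: controls B or C, or knockout G (adjusted p = 0.0739 to 0.116). Its mRNA was 95.8, 118, 112 and 114 CPM in controls and 93.8, 111, 126 and 101 CPM in knockouts, with overlapping groups (log2 change -0.023, SE 0.10, adjusted p = 0.944). Nascent Eif2b4 RNA stood at 7.51, 7.32, 7.70, 7.47 and 7.58 with DMSO and at 6.94, 7.11, 6.86, 7.26 and 7.28 with FX1 (log2 change -0.43, SE 0.12, adjusted p = 0.0225). All 5 FX1 libraries lay below all 5 DMSO libraries. The nascent call was lost when any 1 of these libraries was left out: DMSO 3 or 5 (adjusted p = 0.0582 to 0.0626).

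Eif2b1 (chr5:124570214-124579131, mm10) rose as well. RiboTag mRNA of Eif2b1 was 88.5, 92.2, 86.1 and 78 CPM in controls and 93.9, 96, 101 and 85.6 CPM in knockouts (log2 change 0.12, SE 0.085, adjusted p = 0.508). Eif2b1 footprints were 134, 148, 141 and 139 CPM in controls and 172, 166, 168 and 159 CPM in knockouts (log2 change 0.24, SE 0.077, adjusted p = 0.0341). Eif2b1 had overlapping groups in mRNA and all 4 knockouts above all 4 controls in footprints. The footprint call was lost when any 1 of these libraries was left out: controls A or C, or knockouts E, F or G (adjusted p = 0.0648 to 0.0868). It also ended with upper-quartile factors and without the filter on low counts (adjusted p = 0.0535 and 0.0501). Eif2b3 (chr4:117019402-117086852, mm10) fell. RiboTag mRNA of Eif2b3 was 38.1, 53.8, 45.2 and 42.2 CPM in controls and 36.3, 35.2, 32.6 and 32.6 CPM in knockouts (log2 change -0.39, SE 0.11, adjusted p = 0.0785). Eif2b3 footprints were 121, 118, 119 and 115 CPM in controls and 89.5, 92.2, 103 and 96.5 CPM in knockouts (log2 change -0.31, SE 0.084, adjusted p = 0.017). Both kinds of library had all 4 knockouts below all 4 controls. Its mRNA change passed with DESeq2 (log2 change -0.41, adjusted p = 0.0386) and in edgeR without control A (adjusted p = 0.0264). The footprint call was lost when any 1 of these libraries was left out: control B, or knockout E (adjusted p = 0.0516 to 0.0551). It ended without the filter on low counts as well (adjusted p = 0.0597). The translation efficiency of Eif2b3 did not pass (log2 change 0.13, SE 0.14, adjusted p = 0.584).

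Eif2b5, the catalytic ε subunit, passed in no comparison of knockout or FX1-treated muscle. Eif2b5 poly(A) RNA stood at 9.60, 9.60, 9.52 and 9.57 in Cre-negative and at 9.55, 9.45, 9.56, 9.56 and 9.51 in knockout muscle (log2 change -0.048, SE 0.029, adjusted p = 0.291). Eif2b5 stood at 9.55, 9.57, 9.51 and 9.54 in oil-treated muscle and at 9.56, 9.46, 9.57, 9.57 and 9.52 in the same knockouts (log2 change -0.0081, SE 0.028, adjusted p = 0.862). For Eif2b5 the knockout libraries overlapped both control groups. RiboTag mRNA of Eif2b5 was 138, 162, 136 and 147 CPM in controls and 146, 147, 168 and 148 CPM in knockouts (log2 change 0.061, SE 0.086, adjusted p = 0.772). Eif2b5 footprints were 168, 143, 134 and 126 CPM in controls and 158, 144, 149.7 and 177 CPM in knockouts (log2 change 0.14, SE 0.10, adjusted p = 0.355). For Eif2b5 the groups overlapped in both kinds of library. Knockout G stood apart above the other knockouts in Eif2b5 mRNA. Nascent Eif2b5 RNA stood at 8.02, 8.14, 8.09, 7.85 and 8.12 with DMSO and at 8.001, 7.97, 7.97, 7.95 and 7.89 with FX1 (log2 change -0.087, SE 0.091, adjusted p = 0.524). Eif2b5 had overlapping DMSO and FX1 libraries. Eif2b2 had a footprint change of 0.12 (SE 0.083, adjusted p = 0.294) and a poly(A) change of -0.0017 (adjusted p = 0.973), and its chromatin is described further on. In translation efficiency all 5 eIF2B changes were above 0, from 0.12 to 0.38, with 0 called, beside a median of 0.054 for all genes.

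**Figure D4:**
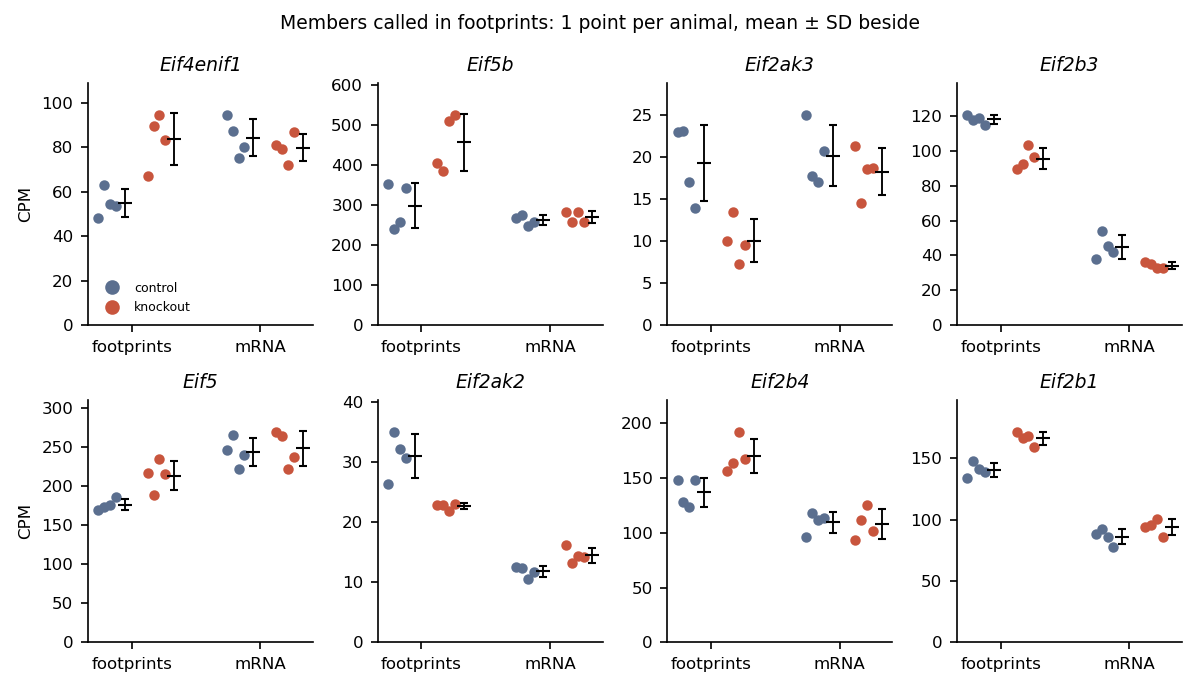
Footprint and mRNA levels in CPM (y axis) of the 8 genes called in footprints, 1 point per animal for 4 controls and 4 knockouts, with the mean and SD beside the points. In footprints the 2 groups do not overlap in any of the 8 panels, whereas in mRNA they overlap in most, Eif2b3 and Eif2ak2 being the exceptions. The 8 genes were chosen by these footprint calls. Over all genes tested, groups did not overlap in 25% in footprints and in 11.3% in mRNA.

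In poly(A) RNA against oil-treated muscle, 3 of the 14 eIF3 genes were called: Eif3f and Eif3h rose and Eif3a fell, where 25.6% of all genes were called. In that comparison 9 of 37 markers of cells other than fibres, 5 of them erythroid, were higher and 4 lower, and their part in the result was not tested. None of the 14 was called in any other comparison of knockout or FX1-treated muscle. Eif3a encodes the largest subunit, the platform of the complex. Eif3a poly(A) RNA stood at 10.82, 10.80, 10.81 and 10.86 in Cre-negative and at 10.79, 10.76, 10.77, 10.74 and 10.75 in knockout muscle (log2 change -0.063, SE 0.022, adjusted p = 0.0695). Eif3a stood at 10.85, 10.90, 10.89 and 10.92 in oil-treated muscle and at 10.81, 10.78, 10.79, 10.76 and 10.77 in the same knockouts (log2 change -0.11, SE 0.022, adjusted p = 0.00286). For Eif3a the knockout libraries lay entirely below both control groups. The oil comparison lost this call after quantile normalization (log2 change -0.014, adjusted p = 0.653) and kept it with each library left out. RiboTag mRNA of Eif3a was 235, 247, 211 and 235 CPM in controls and 224, 249, 169.6 and 229 CPM in knockouts (log2 change -0.090, SE 0.11, adjusted p = 0.739). Eif3a footprints were 608, 478, 466 and 373 CPM in controls and 425, 434, 429.7 and 452 CPM in knockouts (log2 change -0.15, SE 0.12, adjusted p = 0.383). For Eif3a the groups overlapped in both kinds of library. Nascent Eif3a RNA stood at 11.75, 11.80, 12.03, 11.66 and 11.79 with DMSO and at 11.65, 11.66, 11.50, 11.83 and 11.77 with FX1 (log2 change -0.12, SE 0.11, adjusted p = 0.436). Eif3a had overlapping DMSO and FX1 libraries.

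Eif3f and Eif3h are the pair of subunits with an MPN fold. Eif3f stood at 9.28, 9.24, 9.24 and 9.26 with oil and at 9.33, 9.33, 9.42, 9.40 and 9.39 in the knockouts (log2 change 0.12, SE 0.025, adjusted p = 0.00385). All 5 knockouts lay above the oil libraries, and the call held under every alternative. Against Cre-negative muscle Eif3f did not pass (log2 change 0.061, SE 0.025, adjusted p = 0.123). After quantile normalization Eif3f was the 1 gene called in that comparison, raised, where 1858 of 12111 genes were called. Eif3h stood at 9.16, 9.15, 9.20 and 9.17 with oil and at 9.26, 9.19, 9.33, 9.25 and 9.27 in the knockouts (log2 change 0.092, SE 0.027, adjusted p = 0.0251). Knockout P1896 lay within the oil range. The call was lost when any 1 of these libraries was left out: knockouts P1895 or P1911, or oil-treated P1897 or P1904 (adjusted p = 0.0503 to 0.0708). Neither passed in footprints (log2 change 0.0031 and 0.076, adjusted p = 0.987 and 0.605). Among the other subunits Eif3c and Eif3b, which form the core with Eif3a, had footprint changes of 0.22 and 0.20 (adjusted p = 0.126 and 0.122), and Eif3l and Eif3d, which contacts capped mRNA, of -0.24 and -0.13 (adjusted p = 0.164 and 0.461). Eif3e, Eif3g, Eif3i, Eif3k and Eif3m lay between -0.025 and 0.14. Eif3e shares its sequence with 4 pseudogene entries in RefSeq. Eif3j1 and Eif3j2 did not pass the footprint filter, with 2 to 12 counts a library.

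The relatives of the eIF4 group include cap-binding proteins outside the main complex and regulators of eIF4E. Eif4enif1, which encodes 4E-T, a protein that binds eIF4E and brings it to the nucleus and to mRNA decay bodies, rose in footprints and in translation efficiency (chr11:3202353-3244588, mm10). RiboTag mRNA of Eif4enif1 was 94.6, 87.4, 75.3 and 79.9 CPM in controls and 80.8, 79.3, 72 and 86.9 CPM in knockouts (log2 change -0.080, SE 0.10, adjusted p = 0.731). Eif4enif1 footprints were 48.3, 63.1, 54.7 and 53.5 CPM in controls and 67.2, 89.6, 94.3 and 83.3 CPM in knockouts (log2 change 0.61, SE 0.13, adjusted p = 0.0045). Eif4enif1 had overlapping groups in mRNA and all 4 knockouts above all 4 controls in footprints. Footprints rose from 54.9 ± 6.14 (SD, n = 4) to 83.6 ± 11.8 (SD, n = 4) CPM, and the call held under every alternative. Its log2 ratio of footprint to mRNA was -1.11, -0.58, -0.54 and -0.64 in control and -0.33, 0.10, 0.36 and -0.12 in knockout animals. The groups did not overlap, and efficiency rose (log2 change 0.73, SE 0.16, adjusted p = 0.0124), the largest called rise among the 47 genes. This call was lost without animal G (adjusted p = 0.0581). In poly(A) RNA Eif4enif1 had a change of 0.034 against Cre-negative and 0.047 against oil-treated muscle (adjusted p = 0.385 and 0.192).

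Eif4e3, an atypical cap-binding protein, was raised in nascent RNA after FX1. Nascent Eif4e3 RNA stood at 8.12, 8.41, 8.18, 8.15 and 8.38 with DMSO and at 8.73, 8.40, 8.94, 8.74 and 8.75 with FX1 (log2 change 0.46, SE 0.12, adjusted p = 0.0147). Eif4e3 had overlapping DMSO and FX1 libraries. FX1 library 2 lay within the DMSO range, and the call held with each library left out. Eif4e3 poly(A) RNA stood at 9.14, 9.12, 9.18 and 9.11 in Cre-negative and at 9.08, 9.02, 9.06, 9.14 and 9.10 in knockout muscle (log2 change -0.056, SE 0.027, adjusted p = 0.175). Eif4e3 stood at 9.13, 9.15, 9.14 and 9.17 in oil-treated muscle and at 9.09, 9.04, 9.08, 9.16 and 9.11 in the same knockouts (log2 change -0.051, SE 0.026, adjusted p = 0.183). For Eif4e3 the knockout libraries overlapped both control groups. RiboTag mRNA of Eif4e3 was 90.7, 106, 92.9 and 98.4 CPM in controls and 81.4, 88.1, 70 and 83.6 CPM in knockouts (log2 change -0.26, SE 0.093, adjusted p = 0.157). Eif4e3 footprints were 49.3, 66.5, 56.9 and 55.1 CPM in controls and 66.6, 73.1, 66.3 and 53.4 CPM in knockouts (log2 change 0.19, SE 0.13, adjusted p = 0.303). Eif4e3 had all 4 knockouts below all 4 controls in mRNA and overlapping groups in footprints. The log2 ratio of footprint to mRNA was -1.02, -0.78, -0.78 and -0.90 in control and -0.35, -0.34, -0.10 and -0.70 in knockout animals, without overlap. Efficiency missed the threshold (log2 change 0.49, SE 0.16, adjusted p = 0.0569) and passed with the animal as a block (adjusted p = 0.0381) and with DESeq2 (adjusted p = 0.0293).

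Eif4g2, or DAP5, is a scaffold like eIF4G that lacks the site for eIF4E. Eif4g2 poly(A) RNA stood at 11.95, 11.98, 11.92 and 11.98 in Cre-negative and at 11.87, 11.84, 11.92, 11.92 and 11.87 in knockout muscle (log2 change -0.076, SE 0.026, adjusted p = 0.0651). Eif4g2 stood at 11.94, 11.95, 11.92 and 11.97 in oil-treated muscle and at 11.88, 11.85, 11.94, 11.93 and 11.88 in the same knockouts (log2 change -0.046, SE 0.024, adjusted p = 0.186). For Eif4g2 the knockout libraries overlapped both control groups. Against oil, quantile normalization turned its change to 0.077 (adjusted p = 0.0281), so no direction is given. RiboTag mRNA of Eif4g2 was 805, 909, 792 and 950.0 CPM in controls and 805, 806, 701 and 718 CPM in knockouts (log2 change -0.19, SE 0.10, adjusted p = 0.361). Eif4g2 footprints were 489.8, 533, 558 and 509 CPM in controls and 496, 526, 549 and 545 CPM in knockouts (log2 change 0.018, SE 0.075, adjusted p = 0.882). For Eif4g2 the groups overlapped in both kinds of library. Nascent Eif4g2 RNA stood at 12.55, 12.49, 12.39, 12.04 and 12.50 with DMSO and at 11.99, 12.51, 12.35, 12.24 and 12.18 with FX1 (log2 change -0.14, SE 0.14, adjusted p = 0.494). Eif4g2 had overlapping DMSO and FX1 libraries.

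Eif4ebp3, a small repressor that competes for eIF4E, rose after FX1 with a wide spread. Nascent Eif4ebp3 RNA stood at 7.21, 6.91, 7.09, 6.92 and 7.03 with DMSO and at 8.18, 8.19, 7.94, 7.03 and 7.20 with FX1 (log2 change 0.68, SE 0.22, adjusted p = 0.0461). Eif4ebp3 had overlapping DMSO and FX1 libraries. FX1 libraries 1 to 3 stood above the DMSO libraries and libraries 4 and 5 did not. The call was lost when any 1 of these libraries was left out: DMSO 1, 2, 3, 4 or 5, or FX1 1, 2 or 3 (adjusted p = 0.0654 to 0.111). It was also lost after quantile normalization and without the filter on low values (adjusted p = 0.0535 and 0.0859). Eif4ebp3 footprints did not pass in knockout muscle (log2 change 0.53, SE 0.30, adjusted p = 0.209). Eif4a3, the helicase of the exon junction complex, Eif4e2, the cap-binding repressor 4EHP, and Eif4h passed in no comparison of knockout or FX1-treated muscle, with footprint changes of 0.0041, 0.13 and 0.075 (adjusted p = 0.981, 0.299 and 0.53). All 7 tested relatives had a footprint change above 0, from 0.0041 to 0.61, with 1 called, beside a median of 0.0040 for all genes.

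Of the 3 factors of subunit joining, 2 were raised in footprints, where 10.9% of all genes were. Eif5b (chr1:37998010-38055579, mm10), the GTPase that brings the large subunit to the start codon, rose in footprints and in efficiency while its mRNA did not pass. RiboTag mRNA of Eif5b was 268, 276, 248 and 256 CPM in controls and 283, 257, 283 and 256 CPM in knockouts (log2 change 0.043, SE 0.078, adjusted p = 0.831). Eif5b footprints were 353, 241, 258 and 342 CPM in controls and 404, 385, 509 and 525 CPM in knockouts (log2 change 0.61, SE 0.14, adjusted p = 0.00706). Eif5b had overlapping groups in mRNA and all 4 knockouts above all 4 controls in footprints. Footprints rose from 299 ± 57.2 (SD, n = 4) to 456 ± 71.7 (SD, n = 4) CPM, and the call held under every alternative. Its log2 ratio of footprint to mRNA was 0.25, -0.30, -0.02 and 0.36 in control and 0.45, 0.51, 0.82 and 0.98 in knockout animals, without overlap (log2 change 0.61, SE 0.17, adjusted p = 0.0314). The efficiency call was lost when any 1 of these libraries was left out: animals B, C, E, G or H (adjusted p = 0.0672 to 0.131). In poly(A) RNA Eif5b had changes of -0.028 against Cre-negative and -0.027 against oil-treated muscle (adjusted p = 0.467 and 0.433), and in nascent RNA -0.17 (adjusted p = 0.249).

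Eif5 makes eIF2 hydrolyse its GTP. RiboTag mRNA of Eif5 was 247, 266, 222 and 241 CPM in controls and 270.0, 265, 223 and 238 CPM in knockouts (log2 change 0.028, SE 0.090, adjusted p = 0.921). Eif5 footprints were 169, 174, 177 and 186 CPM in controls and 217, 189, 235 and 215 CPM in knockouts (log2 change 0.28, SE 0.085, adjusted p = 0.0283). Eif5 had overlapping groups in mRNA and all 4 knockouts above all 4 controls in footprints. Footprints rose from 176 ± 7.21 (SD, n = 4) to 214 ± 18.9 (SD, n = 4) CPM (chr12:111538101-111546753, mm10). The call was lost when any 1 of these libraries was left out: controls A, B or C, or knockouts E, G or H (adjusted p = 0.0527 to 0.102). Its translation efficiency did not pass (log2 change 0.29, SE 0.13, adjusted p = 0.159). Eif5 poly(A) RNA stood at 10.45, 10.55, 10.39 and 10.49 in Cre-negative and at 10.50, 10.46, 10.48, 10.49 and 10.40 in knockout muscle (log2 change -0.0071, SE 0.032, adjusted p = 0.912). Eif5 stood at 10.46, 10.55, 10.47 and 10.46 in oil-treated muscle and at 10.52, 10.47, 10.50, 10.51 and 10.42 in the same knockouts (log2 change 0.00052, SE 0.027, adjusted p = 0.992). For Eif5 the knockout libraries overlapped both control groups. Oil-treated library P1904 stood apart above the others. Nascent Eif5 RNA stood at 10.79, 10.72, 10.69, 10.26 and 10.71 with DMSO and at 10.83, 11.35, 11.004, 10.70 and 10.66 with FX1 (log2 change 0.28, SE 0.15, adjusted p = 0.209). Eif5 had overlapping DMSO and FX1 libraries. DMSO library 4 stood apart below the rest.

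Eif6, the factor that holds free large subunits, passed in no comparison of knockout or FX1-treated muscle. Eif6 poly(A) RNA stood at 8.60, 8.52, 8.49 and 8.56 in Cre-negative and at 8.54, 8.56, 8.63, 8.57 and 8.58 in knockout muscle (log2 change 0.031, SE 0.028, adjusted p = 0.497). Eif6 stood at 8.55, 8.52, 8.55 and 8.51 in oil-treated muscle and at 8.55, 8.58, 8.65, 8.58 and 8.60 in the same knockouts (log2 change 0.059, SE 0.025, adjusted p = 0.108). For Eif6 the knockout libraries overlapped the Cre-negative and lay entirely above the oil-treated ones. RiboTag mRNA of Eif6 was 65.9, 62.3, 61.1 and 65.6 CPM in controls and 55.8, 63.7, 76.7 and 54.4 CPM in knockouts (log2 change -0.025, SE 0.11, adjusted p = 0.943). Eif6 footprints were 79.4, 83.1, 87.1 and 95.8 CPM in controls and 104, 80.8, 97.2 and 88.9 CPM in knockouts (log2 change 0.10, SE 0.10, adjusted p = 0.50). For Eif6 the groups overlapped in both kinds of library. Nascent Eif6 RNA stood at 6.44, 6.57, 6.49, 6.35 and 6.38 with DMSO and at 6.79, 6.79, 6.56, 6.57 and 6.67 with FX1 (log2 change 0.23, SE 0.10, adjusted p = 0.117). Eif6 had overlapping DMSO and FX1 libraries.

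Eif5a is the abundant member of its pair. Eif5a poly(A) RNA stood at 9.90, 9.90, 9.82 and 9.92 in Cre-negative and at 9.86, 9.79, 9.87, 9.87 and 9.85 in knockout muscle (log2 change -0.038, SE 0.027, adjusted p = 0.388). Eif5a stood at 9.91, 9.91, 9.91 and 9.92 in oil-treated muscle and at 9.88, 9.80, 9.89, 9.88 and 9.88 in the same knockouts (log2 change -0.046, SE 0.023, adjusted p = 0.169). For Eif5a the knockout libraries overlapped the Cre-negative and lay entirely below the oil-treated ones. Knockout P1896 stood apart below the other knockouts. RiboTag mRNA of Eif5a was 202, 209.8, 201 and 262 CPM in controls and 201, 198, 228 and 172 CPM in knockouts (log2 change -0.13, SE 0.11, adjusted p = 0.604). Eif5a footprints were 134, 145, 156 and 173 CPM in controls and 144, 137, 155 and 141 CPM in knockouts (log2 change -0.075, SE 0.094, adjusted p = 0.583). For Eif5a the groups overlapped in both kinds of library. Control D stood apart above the other controls in Eif5a mRNA. Nascent Eif5a RNA stood at 8.39, 8.43, 8.73, 8.32 and 8.52 with DMSO and at 8.34, 8.28, 8.13, 8.28 and 8.29 with FX1 (log2 change -0.21, SE 0.10, adjusted p = 0.146). Eif5a had overlapping DMSO and FX1 libraries.

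Eif5a2, its scarce paralogue, had a lowered efficiency that rests on few counts. Its footprint libraries held 7, 12, 10 and 5 counts in controls and 2, 1, 3 and 1 counts in knockouts, too few to enter the footprint test. The counts of mRNA were 43, 44, 32 and 11 in controls and 32, 28, 25 and 58 in knockouts (log2 change -0.066, SE 0.29, adjusted p = 0.943). The fitted efficiency change of -2.0 (SE 0.62, adjusted p = 0.0466) is the largest of the 47 genes, and its size depends on how counts this low are modelled. It was lost with DESeq2 (adjusted p = 0.0508), with the animal as a block (adjusted p = 0.0612) and without the filter on low counts (adjusted p = 0.0656). It was also lost when any 1 of these libraries was left out: animals A, B, C, E, F, G or H (adjusted p = 0.0555 to 0.178). Eif5a2 poly(A) RNA stood at 5.30, 5.31, 5.36 and 5.26 in Cre-negative and at 5.31, 5.25, 5.29, 5.27 and 5.27 in knockout muscle (log2 change -0.027, SE 0.022, adjusted p = 0.443). Eif5a2 stood at 5.38, 5.38, 5.46 and 5.46 in oil-treated muscle and at 5.40, 5.31, 5.37, 5.35 and 5.35 in the same knockouts (log2 change -0.062, SE 0.026, adjusted p = 0.105). For Eif5a2 the knockout libraries overlapped both control groups. Nascent Eif5a2 RNA stood at 5.31, 5.66, 5.18, 5.26 and 5.51 with DMSO and at 5.44, 5.83, 5.66, 5.69 and 5.78 with FX1 (log2 change 0.30, SE 0.13, adjusted p = 0.114). Eif5a2 had overlapping DMSO and FX1 libraries.

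BCL6 peaks, 10925 in all, were assigned by the authors to the nearest start, and 8 of the 47 genes had 10 of them (17%, against 25.5% of all symbols). The strongest was 8634 bp downstream of the start of Eif2b2, an intergenic peak at chr12:85228005-85228225 (mm10) with an authors' score of 88.2, rank 806, where the median score was 23.3. The pair at promoters scored lower: 29.4 for Eif2s2, centred 323 bp before the start, and 17.2 for Eif3a, 329 bp before it. Others lay in introns 1061 bp after the start of Eif4e3 (score 24.5) and 21917 bp after that of Eif4e2 (30.6), in the 3′ UTR of Eif4ebp3 (22.1), -7173 bp from the start of Eif1 (15.9) and 22579 bp after the start of Eif2s2 (31.9). A further pair lay at -50891 and -24746 bp from the start of Eif1ax (29.4 and 14.7), in introns of another transcript. Scores are the authors' own and describe 1 library.

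H3K27ac was raised at the peak beside Eif2b2. In the window series, which counts 1000 bp windows on BCL6 peaks, 6 of the 10 windows of these genes passed the signal filter and 1 was called, where 19.5% of all windows were (18% raised and 1.58% lowered). The window at chr12:85227615-85228615 held 62, 51.1 and 40.1 tags per 10000000 in Cre-negative and 95, 107 and 84.5 in knockout muscle. All 3 knockouts lay above all 3 controls, and signal rose from 51.1 ± 11 (SD, n = 3) to 95.6 ± 11.4 (SD, n = 3) (log2 change 0.91, SE 0.17, adjusted p = 0.00227). The call held under every alternative. Of all called windows 91.9% were raised, against 60.4% after quantile normalization and 72.5% with edgeR on recovered reads. The median log2 change of all windows was 0.14 and moved to -0.065 after quantile normalization, where this window stood at a log2 change of 0.69. In the acute and chronic series the nearest regions, 7515 and 8041 bp from the start, were called in neither. At chr12:85227272-85227772 (+8041) the acute libraries held 23.8, 16.8 and 19.5 in controls and 39.6, 29 and 30.3 in knockouts (log2 change 0.69, SE 0.28, adjusted p = 0.522), and the chronic libraries 33.6, 15.4 and 17.4 in controls and 36.5, 32.5 and 39.9 in knockouts (log2 change 0.77, SE 0.31, adjusted p = 0.578). At chr12:85226746-85227246 (+7515) they held 28.9, 22.6 and 29.6 in controls and 26.4, 16.5 and 28.9 in knockouts (log2 change -0.20, SE 0.28, adjusted p = 0.939) in the acute series and 15.7, 14.1 and 21.3 in controls and 43.1, 37 and 29.7 in knockouts (log2 change 1.07, SE 0.30, adjusted p = 0.225) in the chronic series. The +8041 region had a mean above the controls in both series, and the +7515 region in the chronic one. The region over the first exon (+148) held 60.3, 51 and 60.5 in controls and 72.4, 72.1 and 87.6 in knockouts (log2 change 0.43, SE 0.18, adjusted p = 0.558) in the acute and 91.1, 57.7 and 76.5 in controls and 61.6, 87.2 and 71.5 in knockouts (log2 change -0.022, SE 0.21, adjusted p = 0.993) in the chronic series.

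At the Eif3a promoter, printed above, the window held 283, 326 and 321 in controls and 374, 354 and 344 in knockouts (log2 change 0.21, SE 0.086, adjusted p = 0.11). The groups did not overlap, yet the difference did not pass. At the Eif2s2 promoter it held 39.3, 47.1 and 42.5 in controls and 54.9, 49.7 and 53 in knockouts (log2 change 0.29, SE 0.16, adjusted p = 0.238), again without overlap and not called. Over all windows tested 35.6% had no overlap between the groups. Among the windows of these genes 3 of 6 had none, that of Eif2b2 included. A window of Eif4ebp3 passed when the third Cre-negative library was left out (log2 change -0.92, adjusted p = 0.0341) and not with all libraries (log2 change -0.57, SE 0.32, adjusted p = 0.241). Over all the genes, 97 acetylated regions in 41 genes were counted in the acute and chronic series, and 42 of them lay within 1000 bp of 38 starts. Of 83 acute regions tested limma called 0, where 0.154% of all regions were called (0.147% raised and 0.00734% lowered), with 5 at an unadjusted p below 0.05, and edgeR on recovered reads called 0. Of 76 chronic regions 0 were called, where 0.254% of all were (0.236% raised and 0.0176% lowered), with 3 at an unadjusted p below 0.05 and 0 by edgeR. The calls over all chronic regions, 130 with every library, fell to 3, 2 and 11 with each knockout left out in turn and rose to 384 without the shallowest control. Those over all acute regions, 84 with every library, ran from 21 to 108 with 1 library left out. Of the genes' own regions 0 were called in each of these fits. Regions near starts had a median log2 change of 0.024 in the acute and 0.062 in the chronic series, beside 0.0063 and 0.036 for all regions tested. The chronic median over all regions ran from -0.054 to 0.094 with 1 library left out. A region at -2572 bp from the start of Eif4ebp3 had low signal in the knockouts of both series, without a call. It held 12.7, 22.6 and 23.8 in controls and 6.34, 2.35 and 16.4 in knockouts (log2 change -1.41, SE 0.47, adjusted p = 0.359) in the acute and 16.4, 29.5 and 20.4 in controls and 6.0, 6.07 and 8.85 in knockouts (log2 change -1.52, SE 0.42, adjusted p = 0.228) in the chronic series, and was named after its values were seen.

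**Figure D5:**
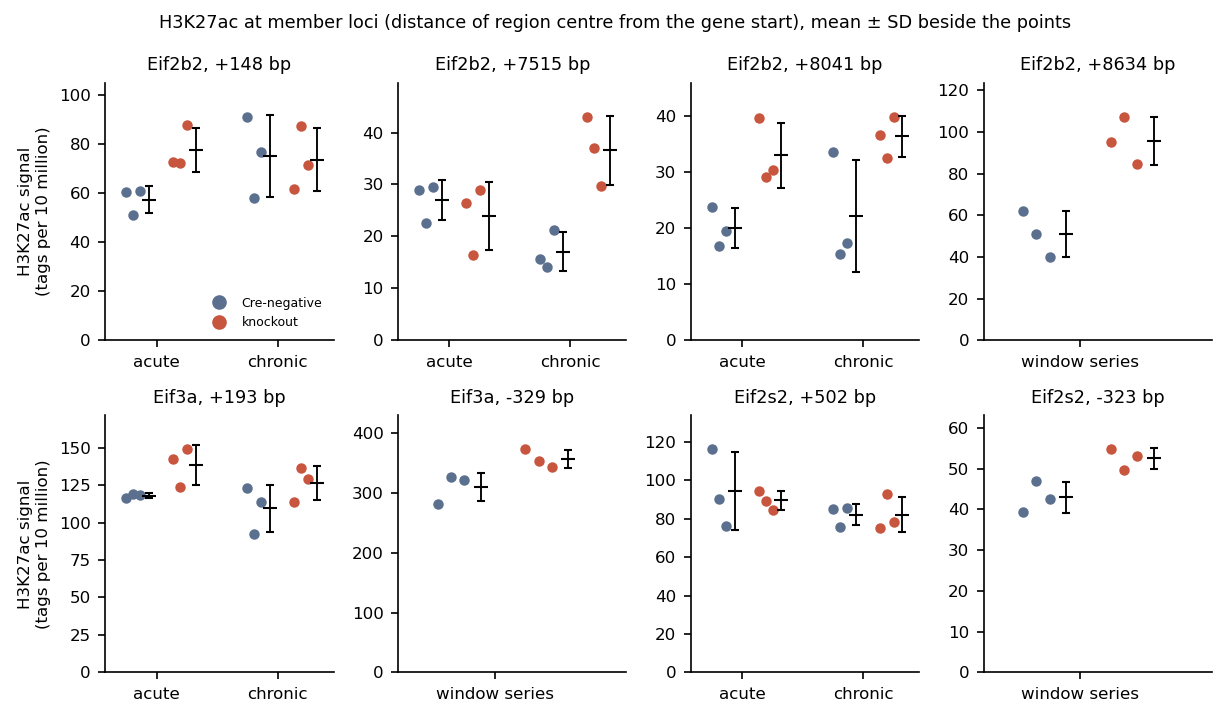
H3K27ac signal in tags per 10000000 (y axis) at regions of Eif2b2, Eif3a and Eif2s2, given by distance from the gene start. Points are 3 Cre-negative and 3 knockout libraries in each of the acute, chronic and window series, with the mean and SD beside them. In the window at +8634 bp of Eif2b2 the knockouts lie between 84.5 and 107, above the controls at 40.1 to 62.

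Neighbouring steps of translation were read from 3 lists: 8 elongation factors, 9 genes of termination, recycling and hypusination, and 13 genes of the integrated stress response, which acts downstream of eIF2α phosphorylation. Against Cre-negative muscle 2 of 8 elongation, 1 of 8 termination and 1 of 10 stress response genes were raised and none lowered, where 6.55% of all genes were raised and 10.3% lowered. Atf5, a transcription factor translated when eIF2α is phosphorylated, rose from 9.75 ± 0.066 (SD, n = 4) to 9.91 ± 0.023 (SD, n = 5) (log2 change 0.16, SE 0.030, adjusted p = 0.00245). Dhps, the first enzyme of hypusine synthesis on eIF5A, rose as well (log2 change 0.079, SE 0.024, adjusted p = 0.0375), as did the exchange factor subunit Eef1b2 (log2 change 0.089, SE 0.028, adjusted p = 0.0453). Against oil-treated muscle 1 elongation gene rose and 1 fell, 1 termination gene rose and 1 fell, and 1 stress response gene rose, where 10.9% of all genes were raised and 14.7% lowered. They were Eef1b2 and Eef1a2, Dhps and Gspt1, and Atf5 (log2 change 0.22, SE 0.023, adjusted p = 2.14e-05). In RiboTag mRNA 1 of the genes tested was called, where 4.21% of all genes were. It was Chac1, a glutathione-degrading enzyme of the stress response, which rose from 92.7 ± 13.8 (SD, n = 4) to 133 ± 14 (SD, n = 4) CPM (log2 change 0.52, SE 0.12, adjusted p = 0.0268). In footprints 2 genes of these lists were raised and 2 lowered, where 10.9% of all genes were raised and 15.7% lowered, and in translation efficiency 1 was raised and 1 lowered, where 9.91% of all genes were called. Footprints of Asns, asparagine synthetase, fell from 14.5 ± 3.53 (SD, n = 4) to 3.9 ± 2.51 (SD, n = 4) CPM (log2 change -1.91, SE 0.38, adjusted p = 0.00366), and its translation efficiency fell with them (log2 change -2.09, SE 0.48, adjusted p = 0.0137). Denr, which helps ribosomes reinitiate and recycle, rose in footprints (log2 change 0.43, SE 0.091, adjusted p = 0.00491) and efficiency (log2 change 0.46, SE 0.13, adjusted p = 0.034). Eef1a1, the elongation factor isoform that adult fibres replace by Eef1a2, fell in footprints (log2 change -0.68, SE 0.16, adjusted p = 0.00842), and Chac1 rose (log2 change 0.39, SE 0.10, adjusted p = 0.00972). After FX1, nascent Chac1 fell from 9.55 ± 0.40 (SD, n = 5) to 8.04 ± 0.30 (SD, n = 5) (log2 change -1.50, SE 0.20, adjusted p = 0.000534), as did Ddit3, or CHOP (log2 change -0.80, SE 0.14, adjusted p = 0.00271), and Eef1a2 (log2 change -1.05, SE 0.19, adjusted p = 0.00293), while Eef1d and the release factor gene Etf1 rose. No stress response gene was raised there. Over these lists 2 genes were raised and 3 lowered after FX1, where 12.4% of all genes were raised and 11.2% lowered.

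The authors' deposited tables give calls of their own for these genes. The share of all genes called there was not counted here, so these calls cannot be set against it. Their table for Cre-negative against knockout muscle called 0 of the 47, and that for oil-treated muscle called 2, Eif3a and Eif3f. Their FX1 table called the same 7 genes as the nascent comparison here. The authors' deposited table of translation efficiency held 43 of the 47 and called 12, of which 3 (Eif5b, Eif2ak2 and Eif5a2) were also called here. In that deposited table Eif5a (0.87), Eif3c (0.64), Eif5 (0.63), Eif5b (0.91), Eif3b (0.60), Eif2s2 (0.51), Eif4e3 (0.64) and Eif2b1 (0.41) had log2 changes above 0, and Eif1 (-1.21), Eif2ak3 (-0.96), Eif2ak2 (-0.70) and Eif5a2 (-2.42) below. Of the 43 in the authors' deposited table, 36 had the same sign here and 7 the opposite, and Eif4enif1 was not among them.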

How the data were processed

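The deposited tables cover poly(A) RNA, RiboTag footprints and mRNA, nascent RNA, H3K27ac and 1 BCL6 peak list from mouse quadriceps; 57 of 74 samples have a column used here, and chronic RNA, input and wild-type H3K27ac libraries are not used here. Per the file headers, the authors counted tags with HOMER on mm10, over exons for poly(A) RNA and over whole gene bodies for nascent and RiboTag RNA, both strands, with at most 5 tags per position for RiboTag. Tags over gene bodies include introns and reads of antisense or nested genes. The submitters' processing notes name Bowtie 1.2, STAR 2.4.0, DESeq2 1.14.1 and mm10, without roles. RiboTag values are the deposited raw counts. Poly(A) and nascent values are the authors' log2 values, whose transform is not given in the sources used here. H3K27ac values are signal that the authors scaled to 10000000 tags per library, per the file headers. Peak scores, log2 changes and adjusted p-values of the authors' deposited tables are quoted as theirs.

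Here, log2 tables were tested with limma 3.58.1 (mean-variance trend, mean log2 of at least 5), counts with edgeR 4.0.16 (TMM factors, minimum count 10, quasi-likelihood test), translation efficiency in edgeR as the genotype-by-library-type interaction, and H3K27ac with limma on log2(signal + 1) at a mean signal of at least 10. P-values were adjusted by Benjamini-Hochberg over all features, and an adjusted p below 0.05 is a call. CPM are scaled by TMM within each comparison. Scripts ran in R 4.3.3 and Python 3.11.15 and were tested on simulated data. Alternatives were quantile or upper-quartile normalization, DESeq2 1.42.0, other filters and pseudocounts, the replicate block, and each library left out. Chosen after seeing the data were edgeR on reads recovered from the H3K27ac signal, where 100% of values lay within 0.05 of a whole tag, and leaving out DMSO 4 and FX1 3 together.

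Footprint and mRNA libraries of 1 animal share the number in their titles, which pairs them; their deviations from the group means correlated from -0.025 to 0.35. The genes and lists were chosen with earlier results of these data known. Values by library are given for called genes, for the largest rise and fall in translation efficiency and for 12 fixed genes. Called genes of the related lists are named, some with means or changes and none by library.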

Additional observations from a re-analysis of the deposited data

Results flagged for a closer look

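Within groups of 4 or 5 libraries, a library was picked out when its gap to the nearest other library exceeded Dixon's limit. Of 156 groups of values 8 were picked out (5.13%), where chance gives about 1 in 20. Eif5a in knockout poly(A) library P1896 stood at a log2 value of 9.787 beside the Cre-negative libraries and 9.805 beside the oil-treated ones, below the nearest knockouts at 9.854 and 9.875. Eif5 in oil-treated library P1904 stood at 10.55, above the nearest at 10.47. In RiboTag mRNA, Eif2b5 stood at 168.3 CPM in knockout G, with the nearest at 148 CPM, and Eif5a at 261.7 CPM in control D, with the nearest at 209.8 CPM. Eif2ak2 footprints of knockout G, at 21.92 CPM, lay below the other 3 knockouts, which were close together from 22.84 CPM. Nascent DMSO library 4 was picked out for Eif2ak2, at a log2 value of 7.887 with the nearest at 8.285, and for Eif5, at 10.26 with the nearest at 10.69. That library also correlated least with the other DMSO libraries.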

How the results depend on the processing

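Left-out libraries moved the counts of called genes. The count ranged from 0 to 2 against Cre-negative muscle, from 3 to 5 against oil, from 0 to 1 in RiboTag mRNA, from 4 to 9 in footprints, from 0 to 4 in translation efficiency, from 29 to 34 for footprints against mRNA in control muscle, from 4 to 9 in nascent RNA and from 1 to 2 for windows on BCL6 peaks. In acute and chronic H3K27ac it was 0 throughout. The count of 0 for translation efficiency came without knockout animal G, where 408 of 15128 genes were called. Calls over all genes moved too with 1 library left out, from 2293 to 3761 in footprints and from 2134 to 4324 in nascent RNA. Quantile normalization gave 8 called genes against oil, 6 raised and 2 lowered, where 3002 of 12146 genes were called, 51.5% of them raised. It turned Eif4g2 from -0.046 to 0.0767 there, and the cause was not tested. DESeq2 called 1 gene in RiboTag mRNA. Over all genes, DESeq2 called 961 in RiboTag mRNA where edgeR called 609, and edgeR on recovered reads called 155 acute and 399 chronic regions where limma called 84 and 130. With the replicate block, 3 nascent genes were called, 2 raised and 1 lowered (Eif2ak2, Eif2ak4 and Eif2ak1), and Eif2b4, Eif2ak3, Eif4e3 and Eif4ebp3 were not. Over all genes that block called 1848 of 13039, where the main fit called 3078. Nascent numbers did not pair the libraries: same-numbered deviations correlated from -0.44 to 0.18, and no library correlated best with its own number. Without DMSO 4 and FX1 3 the nascent count was 10, beside 4317 of 13018 over all genes. With the animal as a replicate block, 4 genes were called in translation efficiency, with Eif4e3 gained and Eif5a2 lost, and 35 for footprints against mRNA in control muscle. No other call changed with the animal block in translation efficiency. Over all genes the animal block called 1717 of 14935 in translation efficiency and 10445 of 14164 for footprints against mRNA. Over single genes and regions, 496 of the alternative values kept direction and side of the threshold, 107 fell below it, 35 passed it and 1 reversed. Footprint counts of 1 to 12 for Eif5a2, Eif3j1 and Eif3j2 limit what can be said of these genes.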
